A study of Mus musculus with 8 samples.

Results

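The ribosomal protein and translation factor genes were taken as the protein-coding genes of GENCODE vM21 whose symbols begin with *Rpl* or *Rps* followed by p or a digit, or with *Eif* or *Eef* followed by a digit, leaving out the *Rps6k* and *Eif2ak* kinases and *Eef2k*. This gave 154 genes of 21951, namely 57 *Rpl*, 34 *Rps*, 51 *Eif* and 12 *Eef* genes. The symbols also bring in genes of other roles, such as *Rps19bp1* and the eIF4E-binding proteins *Eif4ebp1*, *Eif4ebp2* and *Eif4ebp3*, and 6 genes with "-ps" in the symbol. Among the 12 *Eef* genes, *Eef1akmt1* to *Eef1akmt4* and *Eef2kmt* are not genes of elongation factors. The study profiled PRDM10, a zinc finger transcription factor of the PRDM family, by ChIP-seq in mouse embryonic stem cells (mESCs). All 8 samples carried the genotype Prdm10F/F; Rosa26-CreERT2, in which 4-hydroxytamoxifen (4-OHT) activates a Cre recombinase expressed from the *Rosa26* locus, so the ethanol (EtOH) controls also held the floxed alleles and the Cre. Cells received 50 nM 4-OHT or EtOH for 24 h, and each treatment had 3 ChIP samples, each with a different anti-PRDM10 antibody, and 1 input sample. The authors pooled the 3 antibodies into 1 peak list per treatment, 528 peaks for EtOH and 176 for 4-OHT, so that no member has a value per sample, a replicate error or a p-value, and the lists carry no read counts behind a peak. Peak positions do not allow the deletion of *Prdm10* or the identity of the cells to be checked. The paper reports checks of the recombination in DNA, transcript and protein. It also reports that the peaks of control cells were missing or much weaker in PRDM10-depleted cells.

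Ribosomal proteins build the large (*Rpl*) and small (*Rps*) subunits of the ribosome. Initiation factors bring the small subunit, the initiator tRNA and the capped mRNA together: eIF2 carries the initiator tRNA and is recharged by eIF2B, eIF3 is a scaffold of many subunits on the small subunit, and the eIF4 factors recognise the cap and unwind the 5′ leader. Elongation factors of the eEF1 group deliver aminoacyl-tRNA, and eEF2 moves the ribosome along the mRNA. Most of these genes are expressed in all growing cells, and some members, such as *Eef1a2* and *Rpl3l*, are expressed in few tissues.

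A member was called bound where a peak touched its window, the gene body with 5 kb upstream and 1 kb downstream, by at least 1 bp. Bound in this sense means a listed peak, and its absence means only that no peak passed the authors' thresholds. The sequences below are sites in the peaks of bound members that resemble the PRDM10 motif, read here as a pattern of 14 bases with a core of TGGT, any 5 bases and CC. Each line gives 30 bases of GRCm38, 5′ to 3′ on the strand of the match, with the 14 bases of the pattern in capitals. They are shown because the members differ in how much of the core they keep.
Rpl19, in exon sequence, chr11:98026725-98026754, minus strand: tcgggcaaAATGGTTCAGTCCGactccgcg
Rpl22, upstream, chr4:152325660-152325689, plus strand: tcattcgcAGTGGGACAGCCCGtctgactc
Eif3b, upstream far site, chr5:140418979-140419008, plus strand: gctccccaGATAGTACAGTCCTtccccgta
Eif3b, upstream near site, chr5:140419243-140419272, plus strand: agccacatCTTGGTACGATCCCatcgctgc
Eif4a1, site nearest the summit, chr11:69671576-69671605, plus strand: cgtcgagaAATGGCGTCGCCCTcccatacc
Eef1d, in exon sequence, chr15:75909332-75909361, minus strand: gtgcctttCGTGGTCTATGCCGctgcgttt
Rpl7l1 peak, outside the window and in exon sequence of 2310039H08Rik, chr17:46772756-46772785, plus strand: tttcacgaAGTGGTTGCTCCCActccaccc
Of these lines, *Rpl19* matches all 14 bases. The near site of *Eif3b* and the sites of *Eef1d* and *Rpl7l1* keep the 6 fixed bases of the core and differ from the pattern at 1 of the other positions. *Rpl22* (T6G), the far site of *Eif3b* (G4A) and *Eif4a1* (T6C) each differ at 1 fixed base of the core, written as the base of the pattern, its position within the 14 bases (1 is the first capital letter of a line) and the base of the site.

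PRDM10 peaks were found at 7 of the 154 members in EtOH-treated cells, *Rpl19*, *Rpl22*, *Rpl7l1*, *Rps19*, *Eif3b*, *Eif4a1* and *Eef1d*, or 4.55%, against 2.48% of all protein-coding genes (544 of 21951). In the 4-OHT list 3 members had a peak, *Rpl19*, *Eif3b* and *Eef1d*, or 1.95%, against 0.733% of all protein-coding genes (161 genes), and all 3 were also bound in the EtOH list. The other 147 members had no peak in either list. With a peak required on a TSS or in the 1 kb upstream of one, 5 members remained in the EtOH list, or 3.25% against 1.74% of all genes, and *Rps19* and *Rpl7l1* dropped out. The windows of members were shorter than those of other genes, with a median of 10.8 kb against 23.4 kb for all protein-coding genes. With 7 genes, these shares rest on few events, and no test was made of their difference from the background.

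**Figure D1:**
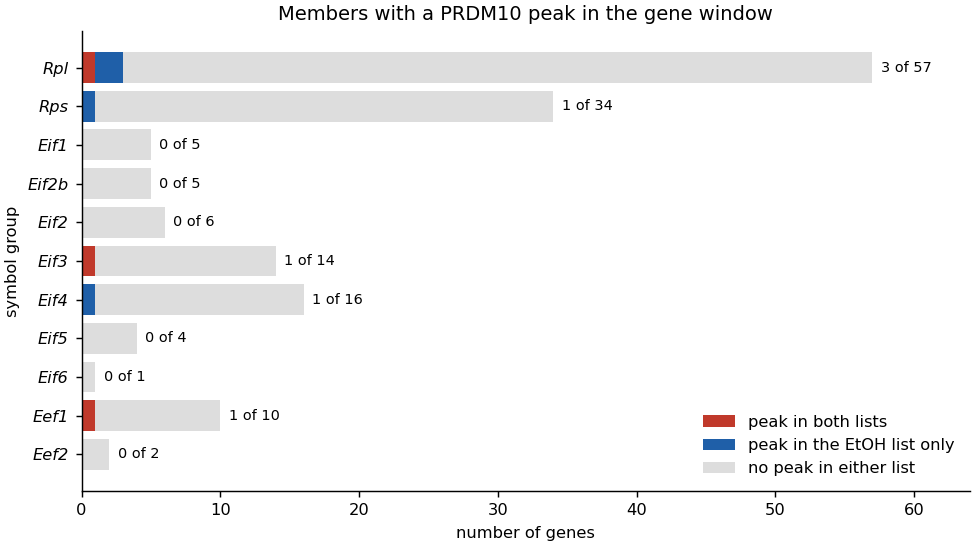
Number of genes in each symbol group (x axis) with a PRDM10 peak in both lists (red), in the EtOH list only (blue) or in neither (grey); the text beside each bar gives the EtOH-bound members of the group. The bound members are scattered over 5 of the 11 groups, with no more than 3 in any.

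The 9 EtOH peaks of the 7 members all had the highest IDR score of 1000, as had 504 of the 528 peaks. By the paper's methods, the IDR compared equal sets split from the pooled alignments. The score thus does not measure agreement among the antibodies. They fell into a strong and a weak set by the peak caller's signal value, a number without unit that ranges from 9.78 to 899.8 in the EtOH list. Peaks of *Rpl19*, *Eef1d*, *Rpl22* and *Eif3b* were among the 132 peaks with the highest signal values, and the other 5 were among the 264 with the lowest. The median was 91.7 for the peaks of members, against 131 for all EtOH peaks and 161 for those in windows of protein-coding genes. The direction turned with 1 peak per gene. Taking the highest peak of each bound gene gave 387 for members and 216 for all bound protein-coding genes, and peaks at a TSS or in the 1 kb upstream gave 394 and 220. All 4 peaks of *Rpl7l1*, *Eif4a1* and *Rps19* had the commonest width of 430 bp, which 300 EtOH peaks shared. Peaks of that width had a median signal value of 56.6, against 388 for the 228 of other widths.

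**Figure D2:**
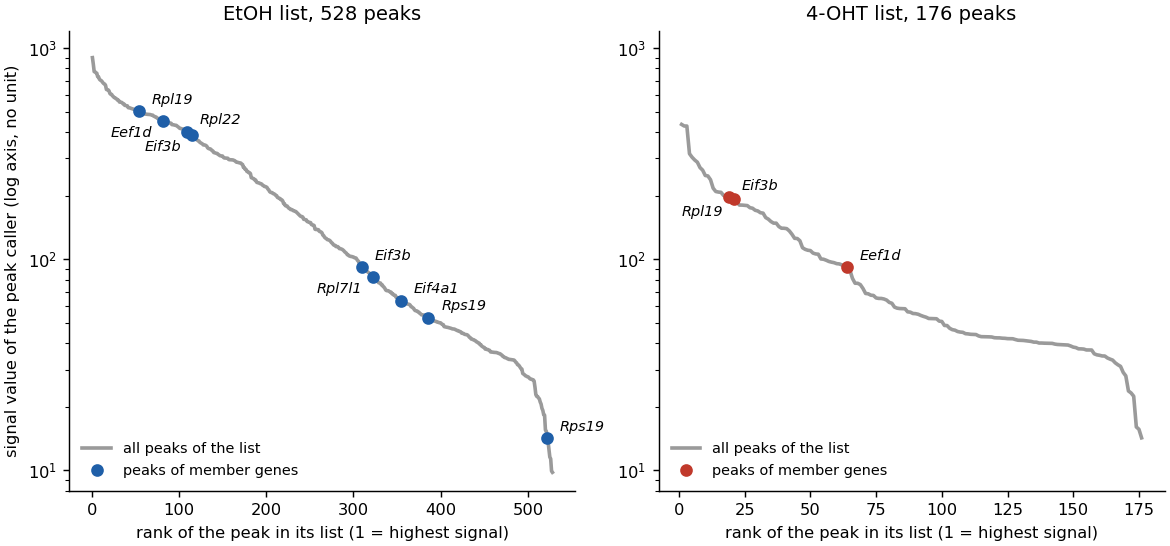
Signal value of every peak (y axis, log scale, no unit) against its rank in the EtOH list (left) and the 4-OHT list (right), with the peaks of member genes as labelled points on the grey curve of all peaks. In the EtOH list 4 member peaks lie between ranks 54 and 115 and 5 between ranks 310 and 522; the scales of the 2 lists are not comparable.

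Among the large-subunit genes, *Rpl19*, which encodes a large-subunit protein that helps to bridge the subunits, held the strongest peak of any member. It lay at chr11:98026662-98027035 (GRCm38) with a signal value of 504, rank 54 of 528, and its summit was in an intron 118 bp downstream of the 5′ end of the gene. The full match to the pattern lay 88.5 bp from that summit and 29.5 bp downstream of the 5′ end, in exon sequence of *Rpl19* that also overlaps the processed transcript *Gm11629*. *Cacnb1*, a calcium channel subunit gene whose window includes the same peak, had its nearest TSS 3794 bp away.

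*Rpl22*, whose product is a large-subunit protein with a paralog in *Rpl22l1*, had a peak at chr4:152325504-152325802 with a signal value of 402, rank 109. The summit was 94 bp upstream of the gene, and the near match T6G lay 26.5 bp from the summit and 67.5 bp upstream of the gene. No intact core was found in this peak. The 150 bases that end next to the annotated 5′ end, with the near match in capitals, are given because they hold both the summit and that site.
Rpl22 upstream, chr4:152325592-152325741, plus strand: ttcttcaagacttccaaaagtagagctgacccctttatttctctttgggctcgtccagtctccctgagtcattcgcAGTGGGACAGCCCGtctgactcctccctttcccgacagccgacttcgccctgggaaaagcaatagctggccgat
The paralog *Rpl22l1* had no peak, and its window was 2187 kb from the nearest one, although its promoter held the core.

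The remaining large-subunit member, *Rpl7l1*, a relative of *Rpl7*, was bound only by the edge of a peak. That peak, at chr17:46772516-46772945 with a signal value of 82.7 and rank 323, lay beyond the 3′ end of the gene, 9906 bp from its nearest TSS, and 9.07% of it was inside the window. Its summit was 96 bp from the TSS of *2310039H08Rik* on the opposite strand. The site of the peak with an intact core, printed above, lay outside the *Rpl7l1* window, in exon sequence of *2310039H08Rik* and 9866.5 bp from the nearest *Rpl7l1* TSS. *Rpl7* itself had no peak.

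*Rps19*, which encodes a small-subunit protein mutated in Diamond-Blackfan anaemia, was the one *Rps* member of 34 with a peak. It had a pair of overlapping weak peaks far upstream, at chr7:24879641-24880070 and chr7:24879862-24880291, with signal values of 52.9 (rank 386) and 14.2 (rank 522). Their summits were 4515 and 4294 bp upstream of the gene, and no other protein-coding gene had a TSS nearer to them. The weaker of the pair was among the 37 EtOH peaks whose FDR score in the list was below 0. Neither held the core or a match to the pattern with up to 1 mismatch, which 75.9% of EtOH peaks did.

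*Eif3b*, which encodes a core subunit of the eIF3 scaffold, was the one eIF3 gene of 14 with a peak. Its promoter held the widest member peak, chr5:140418707-140419350, listed with 2 summits. The stronger summit, 285 bp upstream of the gene, had a signal value of 387 and rank 115, and the weaker, 77 bp upstream, had a signal value of 91.7 and rank 310. Each summit had its own site: the far site, with G4A in the core, lay 49.5 bp from the stronger summit, and the near site, with the core intact, lay 6.5 bp from the weaker one. The stronger summit was thus beside the site whose core differs by a base. The stretch of 300 bases from 350 to 51 bp upstream of the gene is given because it holds both summits and both sites, which are in capitals.
Eif3b upstream, chr5:140418978-140419277, plus strand: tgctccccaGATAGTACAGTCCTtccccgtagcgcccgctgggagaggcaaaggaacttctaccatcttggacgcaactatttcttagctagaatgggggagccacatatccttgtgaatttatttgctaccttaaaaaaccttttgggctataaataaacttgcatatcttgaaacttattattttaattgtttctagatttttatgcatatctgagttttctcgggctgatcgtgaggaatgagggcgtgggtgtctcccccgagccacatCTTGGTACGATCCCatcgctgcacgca
The other 13 eIF3 genes, *Eif3a*, *Eif3c* to *Eif3i*, *Eif3j1*, *Eif3j2*, *Eif3k*, *Eif3l* and *Eif3m*, had no peak. The nearest of their windows to a peak was that of *Eif3i*, 47.9 kb away, and the median distance was 563 kb.

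*Eif4a1*, the gene of the RNA helicase of the cap-binding complex, had a weak peak at chr11:69671398-69671827 with a signal value of 63.6 and rank 355. Its summit was 810 bp downstream of the 5′ end of the gene and 117 bp downstream of the TSS of another annotated transcript, in a non-coding exon. Without an intact core, the peak held 3 near matches within 72.5 bp of the summit, each differing at position 6. The line given earlier is the nearest, 22.5 bp away, and the others are shown for comparison.
Eif4a1, site between these in distance, chr11:69671539-69671568, plus strand: tcccccgcCATGGAACAATCCGcaacccgc
Eif4a1, site farthest from the summit, chr11:69671671-69671700, plus strand: tgcggcaaAATGGACCCGCCCGccaggcgc
Both carry T6A. The paralogs *Eif4a2* and *Eif4a3* had no peak, nor had the genes of the other eIF4 factors, among them the cap-binding *Eif4e* and the scaffold *Eif4g1*. The groups of *Eif1*, *Eif2*, *Eif2b*, *Eif5* and *Eif6*, with 5, 6, 5, 4 and 1 genes, had no bound member, so the carriers of the initiator tRNA and their exchange factor were without a peak.

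Among the elongation factors, *Eef1d*, a subunit of the exchange factor that recharges eEF1A, was bound. Its peak at chr15:75909248-75909657 had a signal value of 453 and rank 82, with the summit in a non-coding exon 86 bp downstream of the 5′ end of the gene. The TSS of *Tigd5*, which is transcribed away from *Eef1d*, was 265 bp from the same summit, so the peak cannot be assigned to either gene by position alone. The site with an intact core lay 123.5 bp from the summit, and near matches with T3G and T6A lay 97.5 and 83.5 bp from it. The partner subunits *Eef1b2* and *Eef1g*, the eEF1A genes *Eef1a1* and *Eef1a2*, and *Eef2* had no peak.

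**Figure D3:**
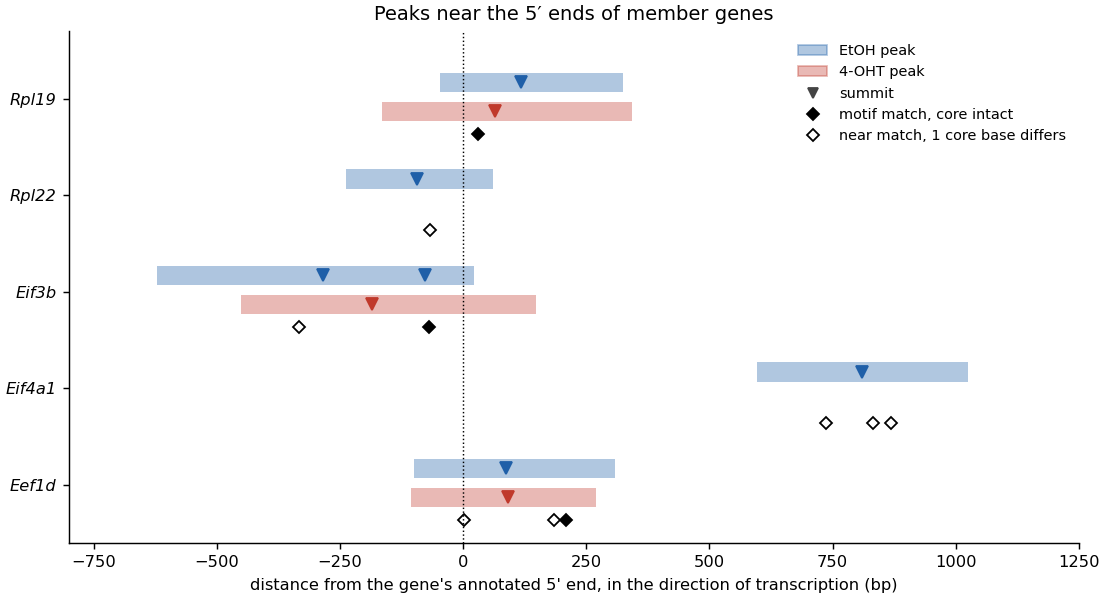
Peaks of the 5 members bound near a TSS, drawn against the distance from the 5′ end of the gene (x axis, bp, in the direction of transcription), with EtOH peaks in blue, 4-OHT peaks in red, summits as triangles, matches with an intact core as filled diamonds and near matches with 1 core base changed as open diamonds. *Rpl22* and *Eif4a1* have EtOH peaks and open diamonds only, and the 3 members with a 4-OHT peak each have a filled diamond. In the whole lists, the core was in 122 of 176 4-OHT peaks (69.3%) and 339 of 528 EtOH peaks (64.2%). Whether an intact core goes with a 4-OHT peak was not tested.

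In cells given 4-OHT, 4 of the 9 EtOH peaks of members (44.4%) were overlapped by a 4-OHT peak, against 20.3% of all EtOH peaks (107 of 528). The 4 stand for 3 loci, since the 2 summits of *Eif3b* lie under the same 4-OHT peak. The 4-OHT peak of *Eif3b*, at chr5:140418876-140419476, had a signal value of 197 and rank 19 of 176 in that list, and its single summit fell between the EtOH summits, 99 and 109 bp from them. *Rpl19* had a 4-OHT peak at chr11:98026544-98027053 with a signal value of 192 and rank 21, its summit 54 bp from the EtOH one. *Eef1d* had one at chr15:75909287-75909662 with a signal value of 91.5 and rank 64, its summit 4 bp from the EtOH one. The median signal value of the 4-OHT list was 55.7. With the stronger EtOH summit taken for *Eif3b*, the order of the 3 genes was *Rpl19*, *Eef1d* and *Eif3b* in EtOH. In 4-OHT, where *Eif3b* has a single summit, it was *Eif3b*, *Rpl19* and *Eef1d*. *Eif3b* is split in the EtOH list only and there are no replicate values, so it was not tested whether the order changed.

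A 4-OHT peak was found at 3 of the 4 strong member peaks and was missing at *Rpl22*. Of the 62 EtOH peaks between ranks 54 and 115, the span of those 4, 31 (50%) were overlapped by a 4-OHT peak. Of the 5 weak peaks, the one overlapped by a 4-OHT peak was the second summit of *Eif3b*, and of the 264 EtOH peaks with the lowest signal values 10 were overlapped. The overlap also differed by peak width in the whole list: peaks of the commonest width, to which 4 of the 5 weak member peaks belong, were overlapped in 7 of 300 cases and the others in 100 of 228. Because signal values are comparable only within a list, no loss of signal at *Rpl19*, *Eif3b* or *Eef1d* was computed.

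In the sequence of the peaks, the core was present in 5 of the 9 EtOH peaks of members (55.6%), against 64.2% of all EtOH peaks. It was found in the peaks of *Rpl19*, *Eef1d*, *Rpl7l1* and both entries of *Eif3b*, in the case of *Rpl7l1* at a place outside the gene's window. Within 100 bp of the summit, the core was in 3 of the 9, and the share of all EtOH peaks was not computed. All 14 bases matched in 1 of the 9, that of *Rpl19*, against 33.1% of all EtOH peaks. A match with up to 1 mismatch anywhere was held by 7 of 9 (77.8%), all but the pair at *Rps19*, against 75.9%. Counted by interval, so that *Eif3b* enters once, the core was in 4 of 8 (50%) against 63.8%, and the full pattern in 1 of 8 (12.5%) against 32.5%. With so few peaks, these differences were not tested.

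The near matches in members whose core differed by 1 base were 7, and in 5 of them (71.4%) the change was at position 6, the last T of TGGT. These were the *Rpl22* site, the 3 *Eif4a1* sites and 1 of the *Eef1d* sites. In all 520 EtOH intervals the same position accounted for 128 of 274 such sites (46.7%), and in promoters not under an EtOH peak for 663 of 2722 (24.4%). The 7 sites come from 4 genes and share peaks, so their share is a description.

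Sequence at the promoters of members was read from the RefSeq table (GRCm38.p6, 250 bases before to 50 after the start), which matched 112 of the 154 members and 16488 protein-coding genes. *Eef1d* was not matched. The core was present in 20 member promoters (17.9%), against 13.8% of all promoters. The count depended on the setting. In the 1 kb upstream of the gene it was 47 (42%, against 37.5%). With the 14-base pattern and at most 1 mismatch outside the core it was 8 (7.14%, against 5.34%). Of the 106 matched promoters of unbound members, 18 (17%) held the core, among them those of *Eif4a2*, *Rpl22l1* and *Eif2b4*. By symbol, the core was present in 11 of 65 promoters of *Rpl* and *Rps* genes (16.9%) and in 9 of 47 promoters of *Eif* and *Eef* genes (19.1%). Member promoters had a median GC content of 59.1% and 22.5 CpG dinucleotides, against 57% and 14 in all promoters.

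**Figure D4:**
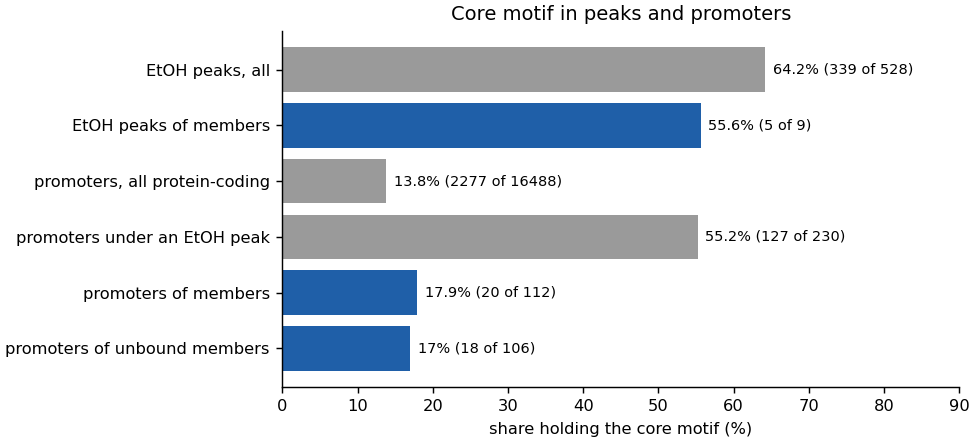
Share (x axis, %) of EtOH peaks and of RefSeq promoters that hold the core motif, with members in blue and the whole list or genome in grey and the counts beside each bar. Promoters of members, at 17.9%, lie near the 13.8% of all promoters and below the 55.2% of promoters under an EtOH peak.

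All 14 bases matched in the promoters of 4 members (3.57%), against 1.44% of all promoters. That of *Rpl19* was under a peak, and those of *Eif3a*, *Rpl35* and *Rpl37* were not. They are printed to be read beside the sites of bound members above.
Eif3a, chr19:60790648-60790677, minus strand: gggaatcaCGTGGTTCCTTCCTttccgtct
Rpl35, chr2:39005226-39005255, plus strand: gccgcggcCGTGGTGCCCTCCGcttcccgg
Rpl37, chr15:5116563-5116592, minus strand: cggcgggtCTTGGTGCAGCCCTatcaggcc
The site of *Eif3a*, which encodes the largest eIF3 subunit, is centred 30.5 bp downstream of the RefSeq start, and those of the large-subunit genes *Rpl35* and *Rpl37* are centred 109.5 and 35.5 bp upstream. Their windows were 3150, 73.8 and 1840 kb from the nearest EtOH peak. Over all protein-coding genes, 66 of 238 promoters with a full match (27.7%) were under an EtOH peak, so most promoters with a full match were also without one.

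For the 146 unbound members on a chromosome with an EtOH peak, the median distance from the window to the nearest peak was 972 kb, against 1420 kb for the 21182 unbound protein-coding genes. Of the members, 72 (49.3%) were more than 1000 kb away and 20 (13.7%) within 100 kb, against 58.3% and 8.76% of those genes. Within 10 kb were 4 members (2.74%, against 1.1%): *Rplp2*, a stalk protein gene (2.21 kb), *Eif2b4*, an eIF2B subunit gene (3.6 kb), *Rps15* (3.76 kb) and *Rpl18* (5.87 kb). The next was *Eif4ebp1*, an inhibitor of the cap-binding protein, at 31 kb. Each of these peaks was nearest to the TSS of another gene, *Pnpla2*, *Zfp513*, *Apc2*, *Dbp* and *Got1l1* in turn, at 6 to 710 bp. Their signal values ran from 51 to 103, below the 131 of the median peak. On the inner side of the window's limits, *Rpl7l1* had 9.07% of its peak in the window, and the *Rps19* peaks lay wholly in it with summits 4515 and 4294 bp upstream of the gene.

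**Figure D5:**
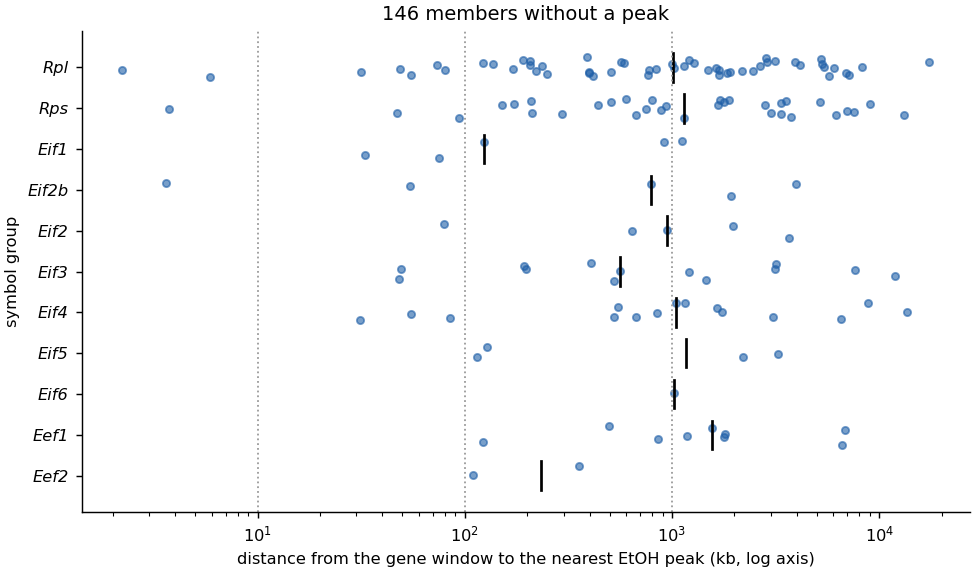
Distance from the window of each unbound member to the nearest EtOH peak (x axis, kb, log scale) by symbol group, with 1 point per gene, black bars for group medians and dotted lines at 10, 100 and 1000 kb. The points spread over 2.21 to 17400 kb, and 4 lie left of the 10 kb line.

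Other genes of translation, in lists that do not overlap the members, were counted by the same rule. Of 38 aminoacyl-tRNA synthetase genes, which encode the enzymes that load tRNAs, *Lars* was bound (2.63%), with EtOH peaks of signal value 117 (rank 277) and 50 (rank 398) on chromosome 18. None of 32 other factors for release, recycling and related steps had a peak, nor had the 15 kinases left out by the symbol rule. Of 78 mitochondrial ribosomal protein genes 3 (3.85%) were bound in the EtOH list. *Mrps27* had a signal value of 554 (rank 33) and also a 4-OHT peak (155, rank 34), and *Mrpl46* and *Mrps11* shared 1 peak (290, rank 165), with its summit 103 and 73 bp from their nearest TSSs. Against the 2.48% of all protein-coding genes, no list held more than 3 bound genes, and differences among the lists were not tested.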

How the data were processed

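PRDM10 ChIP-seq lists from 3 ChIP samples and 1 input sample per treatment were used, 1 pooled list for EtOH and 1 for 4-OHT. The authors aligned reads to mm10 (BWA 0.7.13), removed duplicates (Picard 2.10.6) and multi-mapping or low-quality alignments (SAMtools 1.2), called peaks with SPP and kept those with an IDR under 0.05. How the removal of multi-mapping reads bears on near-identical gene copies was not tested. The deposited columns used were the IDR score, the signal value of the peak caller and an FDR score, with positions and summits. The lists carry no read counts; the methods give an approximate number of raw reads per library, so the depth after filtering and the precision it gives are unknown. From these lists, peaks were joined to GENCODE vM21 genes and GRCm38.p6 sequence, counted, ranked within a list and searched for the motif on both strands, where the 14-base pattern, read from the study's logo, contains the core. Named were all bound members, the 5 nearest unbound members, their complexes and bound genes of other translation lists. *Cacnb1*, *Tigd5* and the paralogs and full-match promoters were singled out after their values were seen. Members and lists were chosen with earlier results of these data known. The joins and the motif search were tested on simulated data. No column of per-sample values was left out. Python 3.11.15, pandas 2.3.3, numpy 2.4.6, pysam 0.24.0, samtools 1.23.1 and matplotlib 3.10.9 were used.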

Additional observations from a re-analysis of the deposited data

How the results depend on the processing

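Of 35 alternatives, 29 stayed within 1.5 times the value reported, among them every alternative for the counts of bound members, which ran from 5 to 8 in the EtOH list and stayed at 3 in the 4-OHT list. *Rpl7l1* and *Rps19* were lost where a peak had to lie near a TSS or in the gene body, *Rpl7l1* also where the summit or at least 50% of the peak had to lie in the window, and *Eif2b4* was gained with 10 kb upstream. The median signal value of member peaks moved from 91.7 to 387 with 1 peak per gene and to 394 with peaks at a TSS or the 1 kb upstream, since both leave out some of the weak peaks, and so from below to above the corresponding value for all peaks or genes. Member peaks with the motif moved from 5 to 1 with all 14 bases required and to 3 within 100 bp of the summit. The share of all EtOH peaks with the core within 100 bp of the summit was not computed. Member promoters with the motif moved from 20 to 47 in the 1 kb upstream of the gene (42%, against 37.5% of all genes) and to 8 with the 14-base pattern and at most 1 mismatch that spares the 6 fixed bases of the core (7.14%, against 5.34%). No paired analysis was possible because the 2 lists used here each pool the samples of a treatment, and for the same reason no sample was left out in turn. Peaks of single antibodies were not analysed here. The pooling hides differences among the antibodies, and a locus without a listed peak may be occupied below the detection limit, which the lists do not give.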
